A study of Ovis aries with 6 samples.

Results

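The genes described here make, break down and store heme and iron in the longissimus muscle of sheep (Ovis aries). They were chosen by symbol, as the rows named HMOX1, HMOX2, BLVRA, BLVRB, FTH1, TFRC, SLC40A1, ALAS1, FECH or MB in a table of 23144 genes. For 9 of these 10 symbols a row was found. The table has no row named MB. A row named LOC780509 carries the description myoglobin, and RefSeq gives the symbol MB to that gene ID, so LOC780509 is described beside the 9 genes but is not counted among them. The description given for the rows of HMOX1, HMOX2, BLVRA, BLVRB and SLC40A1 is uncharacterized protein, so these rows were taken by their symbol. The study compared 2 breeds with different meat performance, Qianhua Mutton Merino (QHMM, 3 animals) and Small Tail Han (STH, 3 animals), all females aged 1 year that were raised in the same environment. The paper describes no treatment, and it states that live weight was measured before slaughter, after a fast. QHMM is a newly bred mutton and wool variety derived from South African Mutton Merino rams and Northeast Fine-wool ewes, and STH is a traditional local variety. Poly(A) RNA of 1 muscle sample per animal was read on an Ion Proton instrument, and the gene counts of a library summed to 10982191 at the lowest and 14334544 at the highest. The libraries are of whole muscle, so that fewer cells of a type and less RNA per cell cannot be told apart.

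Heme is a ring-shaped molecule that holds an iron atom, and in muscle it is needed for myoglobin, which stores oxygen, and for the cytochromes of mitochondria. Its synthesis begins with aminolevulinate synthase (ALAS1) and ends with ferrochelatase (FECH), which inserts the iron. Heme oxygenases (HMOX1, which cells induce under stress, and HMOX2, which is usually described as constitutive) open the ring and release iron, carbon monoxide and biliverdin, which biliverdin reductases (BLVRA and BLVRB) turn into bilirubin. Iron enters cells through the transferrin receptor (TFRC), is stored in ferritin, whose heavy chain is encoded by FTH1, and leaves through ferroportin (SLC40A1).

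All 9 genes passed the filter for low counts. Levels of different genes were compared as RPKM, the read count scaled by gene length and by the reads counted in the library. In QHMM, LOC780509 had the highest mean level of the 10 rows, 9685 ± 1227 RPKM (mean ± SD, n = 3), followed by FTH1 with 2539 ± 129.6. BLVRB (86.8 ± 16.4) and ALAS1 (86.0 ± 11.9) came next with overlapping ranges, then TFRC (62.8 ± 9.18), FECH (30.2 ± 6.74) and HMOX2 (19.7 ± 2.52). HMOX1 (9.92 ± 5.10), BLVRA (8.95 ± 1.67) and SLC40A1 (7.32 ± 1.51) had the lowest levels, and each overlapped the next. In STH the order was different. FTH1 had the highest mean, 4992 ± 463 RPKM (n = 3), and overlapped LOC780509 with 3602 ± 1390. HMOX2 (106.5 ± 55.2) and HMOX1 (97.2 ± 37.3) overlapped each other and came next. BLVRB (58.5 ± 1.56) lay below HMOX1 but overlapped the lowest HMOX2 library, and was followed by ALAS1 (45.9 ± 10.8) and FECH (27.5 ± 5.60). TFRC (13.6 ± 7.92), SLC40A1 (8.45 ± 4.02) and BLVRA (7.87 ± 3.60) were the lowest in STH.

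**Figure D1:**
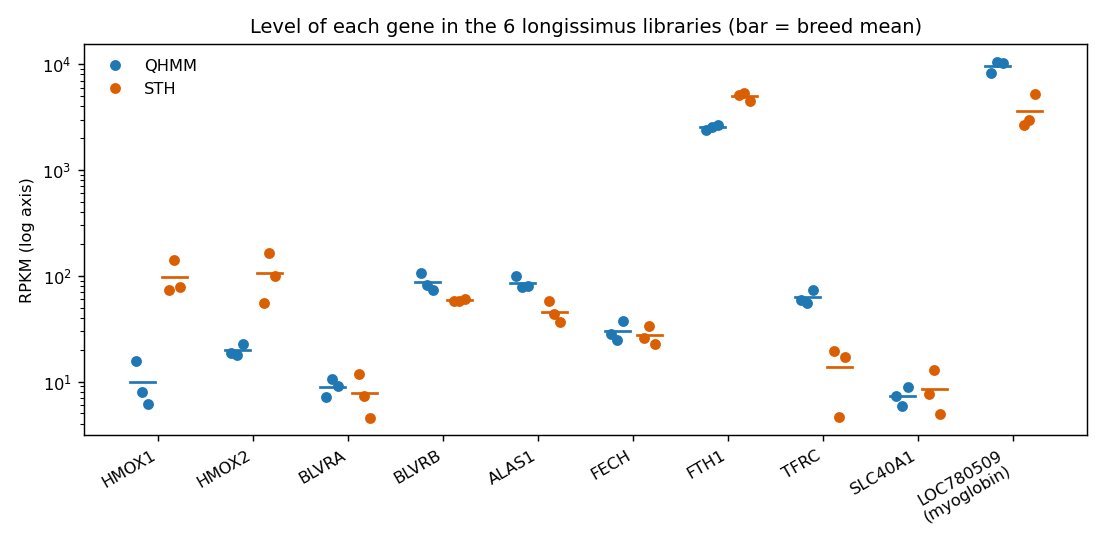
RPKM (log axis) of the 9 genes and of the myoglobin row LOC780509 in each of the 6 libraries, with a bar at each breed mean (n = 3). The STH points lie above the QHMM points for HMOX1, HMOX2 and FTH1 and below them for BLVRB, ALAS1, TFRC and LOC780509.

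For the comparison of the breeds, CPM values were used, which are counts scaled to a common library size with TMM factors from edgeR. A gene was called when the FDR of edgeR's quasi-likelihood F test over 12506 genes was below 0.05 and its fold change above 1.5. HMOX1 and HMOX2 rose in STH, and TFRC and ALAS1 fell. These 4 of the 9 genes compare with 3.45% of all genes tested, of which 1.62% rose and 1.83% fell. The genes had been chosen with earlier results of these data known, so the count is a description. An unadjusted p below 0.05 was found for 6 of the 9, against 19.2% of all genes. For the same 6 the breeds did not overlap in CPM, with STH higher in 3 (HMOX1, HMOX2, FTH1) and lower in 3 (BLVRB, TFRC, ALAS1), where 24.7% of all genes tested did not overlap, 13% with STH higher and 11.7% with STH lower. The median log2 fold change of the 9 was -0.24, and that of all genes tested was 0.02. How many genes were called at all depended on the libraries. Without QHMM replicate 1, 2 or 3 it was 1.03%, 1.61% or 1.17% of all genes tested, and without STH replicate 1, 2 or 3 it was 4.21%, 1.42% or 2.56%, and the calls that members lost in these fits stand beside these shares. DESeq2 called 7.8% of all genes, limma-trend on log2(RPKM + 1) 3.11%, the same without a filter 0.442%, the fit with a replicate block 3.65%, TREAT 0.84% and an FDR of 0.01 gave 0.328%. Of the called genes, 47.0% rose in edgeR and 61.3% in limma-trend on log2(RPKM + 1).

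**Figure D2:**
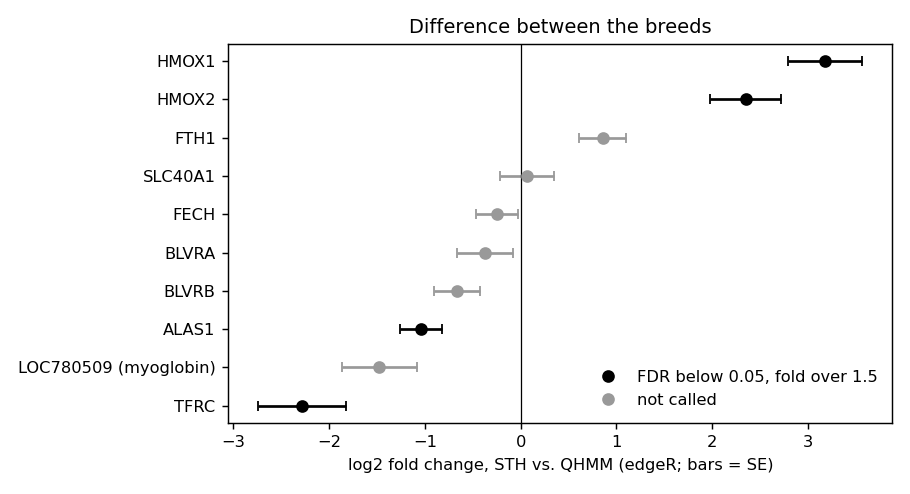
Log2 fold change of STH vs. QHMM from edgeR (n = 3 per breed, bars are SE) for the 9 genes and the myoglobin row LOC780509. HMOX1 and HMOX2 (black, right) and TFRC and ALAS1 (black, left) were called, and the grey genes were not.

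HMOX1, the inducible heme oxygenase, had the largest difference of the 9 genes. Its level was 15.0, 8.96 and 5.73 CPM in QHMM replicates 1, 2 and 3 and 59.0, 122.5 and 88.4 CPM in the STH replicates. The lowest STH library was thus above the highest QHMM library, and both breeds varied within themselves by more than 2-fold. HMOX1 averaged 9.89 ± 4.69 CPM (SD, 3 animals) in QHMM and rose to 89.9 ± 31.8 CPM (SD, 3 animals) in STH, a 9.06-fold difference with a log2 fold change of 3.18 (SE 0.39, edgeR FDR = 0.00450). It remained called with any 1 library left out, and lost the call, with an FDR of 0.0794, when QHMM replicate 2 and STH replicate 3 were left out together, where 0.0864% of all genes tested were called. These libraries lay apart from the others on the second principal component. A row described as a pseudogene of HMOX1, LOC101119163, had 0 to 9 reads per library.

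HMOX2, the other heme oxygenase, had 20.7, 23.3 and 24.4 CPM in QHMM and 51.9, 167 and 128.9 CPM in STH replicates 1, 2 and 3. The QHMM animals hardly differed, whereas the STH animals varied more than 3-fold, with replicate 1 lowest and replicate 2 highest, as for HMOX1. HMOX2 rose 5.08-fold, with a log2 fold change of 2.35 (SE 0.37, edgeR FDR = 0.0123), and was not called without QHMM replicate 1 (FDR = 0.0516). Summed over both genes, heme oxygenase transcript was 34.5, 25.7 and 28.7 RPKM in QHMM and 128.9, 305 and 177 RPKM in STH. HMOX1 made up 45.6%, 30.8% and 21.4% of that sum in QHMM and 56.8%, 45.9% and 44.2% in STH. The breeds overlapped in the ratio of HMOX1 to HMOX2. An exact permutation test of its log2 values gave a two-sided p of 0.2 (n = 3 per breed). The smallest p it can give is 0.1, so it cannot decide whether the ratio differed.

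The biliverdin reductases act on the product of heme oxygenase, and neither was called. BLVRB had 64.2, 59.2 and 44.1 CPM in QHMM and 29.7, 32.3 and 43.7 in STH. All 3 STH values were lower, but QHMM replicate 3 and STH replicate 3 were nearly the same, and the log2 fold change was -0.67 (SE 0.24, edgeR FDR = 0.156). BLVRA had 17.4, 30.2 and 21.7 CPM in QHMM and 23.9, 16.3 and 13.1 in STH, so the breeds overlapped (log2 fold change -0.37, SE 0.29, edgeR FDR = 0.532). Per length, BLVRB stood 4.91 to 14.6 times above BLVRA in the 6 libraries.

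The list for heme breakdown and heme transport holds 12 genes, the heme oxygenases and biliverdin reductases included. Of these, 9 were tested, 2 rose (HMOX1 and HMOX2) and 1 fell, where 1.62% of all genes tested rose and 1.83% fell. The gene that fell was FLVCR2, a membrane transporter of the same family as the heme exporter FLVCR1. FLVCR2 had 9.11, 10.8 and 14.1 CPM in QHMM and 0.766, 1.65 and 4.59 in STH, with no overlap and a log2 fold change of -2.30 (SE 0.51, edgeR FDR = 0.0401). The call was lost when any 1 of the QHMM libraries or STH replicate 2 was left out, with an FDR of 0.0744 to 0.114. Without STH replicate 3, the highest of the STH libraries, the log2 fold change was -3.25, and over the 6 fits that left out 1 library it was -3.25 to -1.87. FLVCR1 was close to the lower end of what was tested, with 0.0866 to 1.18 CPM, a log2 fold change of -0.37 and an SE of 0.70.

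Of the 9 genes listed for heme synthesis, 8 were tested, of which ALAD rose and ALAS1 fell, and the median log2 fold change of the 8 was -0.24. Over all genes tested, 1.62% rose and 1.83% fell. ALAS1, which catalyses the rate-limiting step outside red blood cells, had 209, 196 and 163.5 CPM in QHMM and 102, 84.2 and 90.3 in STH. The breeds did not overlap, and the animals of each breed lay close together. ALAS1 fell from 189.6 ± 23.4 CPM (mean ± SD, n = 3 QHMM) to 92.2 ± 9.08 (n = 3 STH), a log2 fold change of -1.04 (SE 0.22, edgeR FDR = 0.0316). With 1 library left out, the call was kept only without STH replicate 1, and the FDR was 0.0631 to 0.0969 without any other. With all 6 libraries, limma-trend did not call ALAS1 on log2(RPKM + 1) (-0.91, FDR = 0.0560) or on log2(RPKM + 0.1) (-0.92, FDR = 0.0610). ALAS2, the form used by developing red cells, had 0 to 9 reads per library and was not tested.

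ALAD, the enzyme that follows ALAS1, moved in the opposite direction. It had 24.9, 40.8 and 36.7 CPM in QHMM and 73.5, 76.2 and 82.2 in STH, again without overlap. ALAD rose 2.27-fold, with a log2 fold change of 1.18 (SE 0.23, edgeR FDR = 0.0248). Its FDR was above the threshold without QHMM replicates 1 or 3 or STH replicates 2 or 3 (0.0529 to 0.0954). FECH, the last enzyme, had 46.4, 48.5 and 61.2 CPM in QHMM and 36.2, 51.1 and 44.7 in STH. The breeds overlapped in FECH, and its log2 fold change was -0.24 (SE 0.22, edgeR FDR = 0.596). ALAS1 was present at 2.11 to 3.55 times the RPKM of FECH in QHMM and at 1.301 to 2.22 times in STH. Between these ends of the pathway, CPOX had a log2 fold change of 0.44 (edgeR FDR = 0.370) and UROS of -0.36 (edgeR FDR = 0.562).

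**Figure D3:**
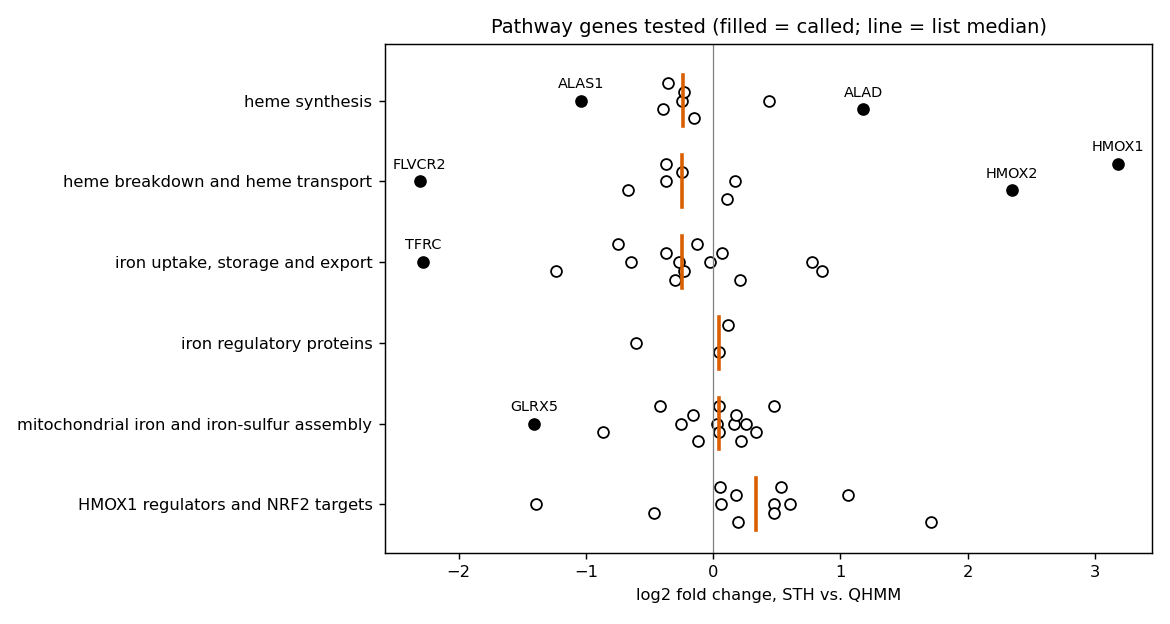
Log2 fold change of STH vs. QHMM for the tested genes of 6 lists on heme and iron, with called genes filled and named and the median of each list as a line. Of the 61 genes tested, 3 rose, 4 fell and the other 54 were not called.

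FTH1, the ferritin heavy chain, was at or near the top of the levels in both breeds. It had 1409, 1793 and 1530.3 CPM in QHMM and 2531, 2908 and 3127 in STH. Each STH library was above each QHMM library, the difference was 1.81-fold, and it was not past the threshold (log2 fold change 0.86, SE 0.25, edgeR FDR = 0.0877). DESeq2 on the same counts called it (log2 fold change 0.84, FDR = 0.0104), and so did limma-trend on log2(RPKM + 1) (0.97, FDR = 0.0196), a scale on which the median over all genes tested was 0.12.

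The value of FTH1 may depend on how reads were divided among copies, for which the rows are summed below. The effect of losing reads that copies share was not tested. The table holds 15 rows described as ferritin heavy chain or as its pseudogene, 9 of them with reads, and only uniquely mapped reads were counted, so that reads shared by copies were lost and the rest may be split. LOC101105484, a ferritin heavy chain-like gene, took more reads than FTH1 itself, 51.3% to 55.6% of the reads on these rows against 33.9% to 37.2% for FTH1. Scaled by length, LOC101105484 and FTH1 were close, with mean RPKM of 2504 and 2539 in QHMM and 5063 and 4992 in STH. The ratio of FTH1 to LOC101105484 in counts was 0.646 to 0.696 in all 6 libraries. LOC101105484 had 2179, 2636 and 2198 CPM in QHMM and 3896, 4362 and 4810.1 in STH, and it had a log2 fold change of 0.90 (SE 0.25, edgeR FDR = 0.0783). The pseudogene row LOC101121401 rose, with a log2 fold change of 1.32 (SE 0.26, edgeR FDR = 0.0253), and LOC101117673 had 1.39 (SE 0.33) with an FDR of 0.0502. The call of LOC101121401 was kept only when STH replicate 1 was left out. LOC101117673 was called in 6 of the 12 settings other than leaving out 1 library. Summed over the rows, the heavy chain had 3988, 4815 and 4142 CPM in QHMM and 7002, 8510 and 9222 in STH. The sum had a log2 fold change of 0.91 (SE 0.26, edgeR FDR = 0.0850), so the direction and the call were those of FTH1 alone.

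**Figure D4:**
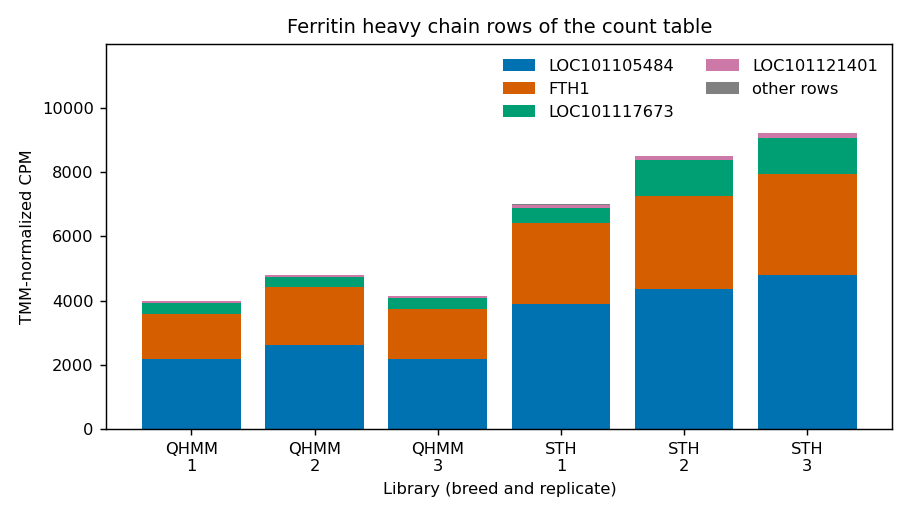
TMM-normalized CPM of the rows described as ferritin heavy chain, stacked for each of the 6 libraries. The 3 QHMM bars reach 3988 to 4815 and the 3 STH bars 7002 to 9222, with LOC101105484 and FTH1 as the main parts of each.

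The light chain of ferritin, FTL, also has many copies, 36 rows by description, and all of them together had 276 to 1028 reads per library, or 0.344% to 1.75% of the reads on ferritin rows. FTL itself had 17.9, 3.62 and 12.2 CPM in QHMM and 4.91, 18.8 and 4.50 in STH. The breeds overlapped (log2 fold change -0.27, SE 0.61, edgeR FDR = 0.858), and with unique reads alone its level is uncertain.

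TFRC, which brings transferrin-bound iron into the cell, fell the most among the 9 genes. It had 160.8, 179 and 194 CPM in QHMM and 44.4, 11.4 and 54.1 in STH. The highest STH library was far below the lowest QHMM library, and STH replicate 2, which had the most HMOX1 and HMOX2, had the least TFRC. Over all genes tested, STH replicate 2 also lay furthest from QHMM on the first principal component. Its value there was 56.9, against 19.2 and 31.8 in STH replicates 1 and 3. TFRC fell from 178 ± 16.8 CPM (mean ± SD, n = 3 QHMM) to 36.6 ± 22.4 (n = 3 STH), a log2 fold change of -2.28 (SE 0.45, edgeR FDR = 0.0256). It was not called without QHMM replicate 1, 2 or 3 (FDR 0.0594 to 0.0720). FTH1 had 36.2 to 46.1 times the RPKM of TFRC in QHMM and 263 to 1174 times in STH.

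SLC40A1, the iron exporter, had 24.0, 22.8 and 28.7 CPM in QHMM and 21.3, 38.7 and 19.1 in STH. The breeds overlapped, and the log2 fold change of 0.07 (SE 0.28, edgeR FDR = 0.926) turned to -0.33 without STH replicate 2, the highest of the 6 libraries. Of the 22 symbols listed for iron uptake, storage and export, 14 were tested and TFRC was the only one called by edgeR, DESeq2 adding FTH1, and the median log2 fold change was -0.25. Over all genes tested, edgeR called 3.45% and DESeq2 7.8%. STEAP4, a metal reductase, had a log2 fold change of -1.24 (SE 0.58, edgeR FDR = 0.274) with overlapping breeds. HFE, a partner of the transferrin receptor, had 0.77 (SE 0.31, edgeR FDR = 0.1997) without overlap. Hepcidin (HAMP), the hormone that removes ferroportin from the cell surface, had 0 reads in all 6 libraries, which allows up to 3 reads per library.

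The iron regulatory proteins bind the mRNAs of ferritin and of the transferrin receptor when iron is scarce, and FBXL5 directs the degradation of one of them, IREB2. Of these 3 genes 0 were called by edgeR, DESeq2 or limma-trend, and 1 had an unadjusted p below 0.05. That was ACO1, with 66.3, 49.3 and 39.1 CPM in QHMM and 37.3, 29.4 and 35.0 in STH. ACO1 had a log2 fold change of -0.61 (SE 0.24, edgeR FDR = 0.199). IREB2 and FBXL5 had log2 fold changes of 0.05 and 0.12, which turned negative without STH replicate 2 and, for FBXL5, without QHMM replicate 1 or, for IREB2, without QHMM replicate 2.

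In mitochondria, iron is built into heme and into iron-sulfur clusters. Of 17 genes listed for mitochondrial iron and cluster assembly, 15 were tested and 1 was called by edgeR, against 3.45% of all genes tested. The called gene fell, and the median log2 fold change of the list was 0.04. That gene was GLRX5, a glutaredoxin that passes on newly made clusters, with 118, 153 and 109 CPM in QHMM and 48.9, 25.2 and 69.5 in STH. GLRX5 had a log2 fold change of -1.41 (SE 0.34, edgeR FDR = 0.0491), just inside the threshold, and lost its call without any 1 library other than STH replicate 3. BOLA3, which works with GLRX5, had -0.87 (SE 0.24, edgeR FDR = 0.0787) and also lay lower in every STH library, and DESeq2 called it (FDR = 0.0302). NFS1, the sulfur donor of the clusters, had -0.42 and HSCB, a co-chaperone, had 0.48, both with an FDR above 0.3.

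HMOX1 transcription is held down by BACH1, which senses heme, and is activated by NFE2L2 (NRF2), and both pair with small MAF proteins. Of 14 genes listed as regulators of HMOX1 or as NRF2 targets, 12 were tested and 0 were called by edgeR, with 3 below an unadjusted p of 0.05, and limma-trend called 0, while DESeq2 called BACH1 and NQO1. The median log2 fold change was 0.34. BACH1 had 7.11, 9.05 and 9.73 CPM in QHMM and 13.5, 25.4 and 15.2 in STH, all STH values being higher (log2 fold change 1.06, SE 0.29, edgeR FDR = 0.0762). MAFF, a small MAF protein, had 9.46, 6.97 and 0.707 CPM in QHMM and 14.0, 24.0 and 18.4 in STH (log2 fold change 1.71, SE 0.61, edgeR FDR = 0.155). NQO1, a quinone reductase and a standard NRF2 target, lay on the other side, with 62.5, 25.3 and 58.0 CPM in QHMM and 9.38, 15.7 and 30.7 in STH (log2 fold change -1.39, SE 0.44, edgeR FDR = 0.112). NFE2L2 had a log2 fold change of 0.05 (SE 0.24) and KEAP1, its inhibitor, of 0.19 (SE 0.26).

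Over the 6 lists, 61 of 77 symbols were tested and 7 were called, 4 of them among the 9 genes. Without the 9 genes, 3 of 52 were called, or 5.77% against 3.45% of all genes. HFE2 and HJV in these lists are symbols of the same gene.

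LOC780509, the myoglobin row, had a higher mean RPKM in QHMM than any of the 9 genes. It had 4834, 7310.2 and 5866 CPM in QHMM and 1312, 1579 and 3599 in STH. All STH values were lower, with replicate 3 well above the other two, and the log2 fold change of -1.47 (SE 0.39, edgeR FDR = 0.0683) was not past the threshold. Without STH replicate 3 it was called (-2.05, FDR = 0.0131), as it was by DESeq2 (-1.49, FDR = 0.00108). Of the 12 settings other than leaving out 1 library, 5 called it, DESeq2 included. Myoglobin took 0.489%, 0.622% and 0.604% of all counts in QHMM and 0.157%, 0.174% and 0.307% in STH, where the 95% Wilson interval of the last, 0.304% to 0.310%, covers counting error only. By RPKM it ranked 8 to 9 among all genes in QHMM and 13 to 27 in STH, and FTH1 ranked 25 to 29 in QHMM and 11 to 15 in STH.

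Myoglobin is most abundant in slow, oxidative fibres, and markers of these fibres differed between the breeds as well. Of 11 slow-fibre markers, 10 were tested and 6 fell, 9 by DESeq2, 4 by limma-trend, and in all 10 each STH library was below each QHMM library, against 11.7% of all genes tested. Over all genes tested, edgeR called 3.45%, DESeq2 7.8% and limma-trend 3.11%. The summed level of the slow-fibre markers was 16622 to 24029 RPKM in QHMM and 7330 to 11308 RPKM in STH. OMYHCS, the slow myosin heavy chain, had a log2 fold change of -1.34 (SE 0.26, edgeR FDR = 0.0251). The ratio of LOC780509 to OMYHCS in RPKM was 2.45, 4.17 and 4.11 in QHMM and 1.84, 2.37 and 5.44 in STH, so the breeds overlapped in it. Of 10 fast-fibre markers, 7 were tested and 0 were called by edgeR, with 2 below an unadjusted p of 0.05. All 7 had a log2 fold change below 0, with a median of -0.34, where 6026 of all 12506 genes tested were below 0. DESeq2 called 1 of the 7, ACTN3, and limma-trend 0. The part of fibre type in the values of myoglobin, ALAS1 and TFRC was not tested.

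The labelled tissue was checked with 8 skeletal muscle markers, of which 7 were tested and had a summed level of 70719 to 114423 RPKM. By edgeR 0 of the 7 were called, with 1 below an unadjusted p of 0.05, while DESeq2 and limma-trend each called CASQ1, the calcium-binding protein of the muscle's calcium store, lower in STH. CASQ1 had a log2 fold change of -1.37 (SE 0.37, edgeR FDR = 0.0714), and the breeds did not overlap. TNNT3, a troponin of fast fibres, had 0 reads in all 6 libraries, for which the cause was not tested, so a row at 0 in this table need not mean that the transcript was absent. HMOX1, FTH1 and SLC40A1 are also strongly expressed by macrophages, which take up old red cells. Of 12 macrophage markers, 10 were tested and 0 were called by edgeR, DESeq2 or limma-trend, with 1 below an unadjusted p of 0.05, and 8 of the 10 had a log2 fold change below 0. In 3 of the 10 (AIF1, TYROBP and FCER1G) each STH library was below each QHMM library, against 11.7% of all genes tested. The reverse was found in 0 of the 10. The summed level of the macrophage markers was 129 to 144 RPKM in QHMM and 202, 109 and 63.9 RPKM in STH replicates 1, 2 and 3. STH replicate 1 lay above and STH replicates 2 and 3 lay below all QHMM libraries. MARCO, a receptor of some macrophages, had 0 to 3 reads per library, and CD163 was not analysed here. C1QA, a complement gene of macrophages, had 32.0, 46.4 and 38.5 CPM in QHMM and 54.5, 23.5 and 14.6 in STH. The part of macrophages in the values of HMOX1, FTH1 and SLC40A1 was not tested.

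Few reads fell on erythroid rows. Of 9 erythroid symbols 5 had a row and 0 were tested, HBM, SLC4A1 and EPB42 had 0 reads, and the most reads on any of them in a library was 23, on AHSP in STH replicate 1. A row described as hemoglobin alpha, LOC101108797, had 16 to 55 reads per library. The 3 endothelial markers tested gave 0 calls by edgeR, DESeq2 and limma-trend and 0 below an unadjusted p of 0.05, and their summed level of 109 to 137 RPKM in QHMM overlapped that of 110.5 to 178 in STH. Of 5 adipocyte markers, 4 fell in STH by edgeR and by DESeq2, and limma-trend tested 4 and called 2, ADIPOQ and PLIN1. Over all genes tested, edgeR called 3.45%, DESeq2 7.8% and limma-trend 3.11%. ADIPOQ, an adipocyte hormone, had a log2 fold change of -2.13 (SE 0.36, edgeR FDR = 0.0143). LEP, also called, had only 5, 0 and 1 reads in STH against 84, 11 and 24 in QHMM, and FABP4, a fatty acid carrier, had a log2 fold change of -0.04 (SE 0.61, edgeR FDR = 0.980). The summed level of the 5 was 59.2 to 276 RPKM in QHMM and 40.3 to 128.5 in STH. TFRC, ALAS1, FLVCR2 and GLRX5 fell beside them, and the part of fat cells in these values was not tested.

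The genes whose pattern over the 6 libraries was most like that of HMOX1 were found from log2 CPM centred on each gene's mean, by the root mean square difference from HMOX1. They were FOXO1 (0.20), SLC25A33 (0.22), FOSL2 (0.31), CA12 (0.36) and SCN3B (0.38), out of 12506 genes tested. FOXO1 encodes a forkhead transcription factor, SLC25A33 a mitochondrial pyrimidine nucleotide carrier, FOSL2 an AP-1 subunit, CA12 a carbonic anhydrase and SCN3B a sodium channel subunit. FOXO1 had 20.4, 16.7 and 10.4 CPM in QHMM and 74.4, 184 and 143 in STH. SLC25A33 had 9.80, 5.70 and 3.30 CPM in QHMM and 35.7, 112 and 68.0 in STH. As in HMOX1, QHMM replicate 3 had the lowest value of each of the 5 genes, and in 4 of them STH replicate 2 had the highest, the exception being CA12. In QHMM replicates 1, 2 and 3, SCN3B had only 6, 3 and 2 reads and CA12 12, 10 and 4. The order of these libraries in SCN3B and CA12 thus rests on few reads. The 5 genes were picked for this likeness, which the difference between the breeds dominates, so no test is given for them.

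**Figure D5:**
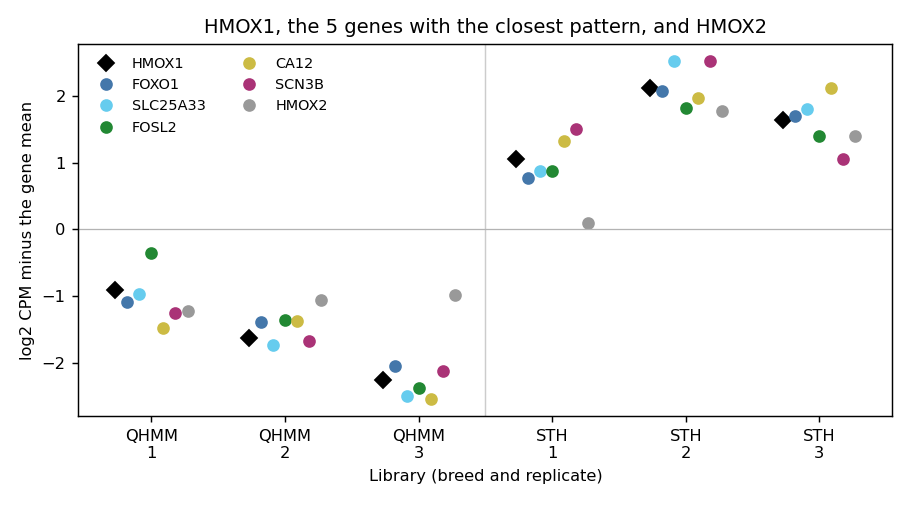
Log2 CPM minus the gene's mean over the 6 libraries for HMOX1 (diamonds), the 5 genes with the closest pattern and HMOX2 (grey). In QHMM the values of HMOX1 and the 5 genes are all below 0, and in STH all are above 0, while HMOX2 is near 0 in STH replicate 1.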

How the data were processed

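The authors mapped filtered Ion Proton reads to the sheep genome (Oar_v3.1), kept uniquely mapped reads and deposited raw counts per gene. They also deposited RPKM values, in which the same counts are scaled for gene length and library total. The aligner, counter, strand setting and annotation release are not given in the sources used here. All 12 per-sample columns were used. Groups came from the sample titles, and the titles' numbers are not stated to pair animals.

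Counts were tested in R 4.3.3 with edgeR 4.0.16 (TMM, filterByExpr, glmQLFit, glmQLFTest, a model of breed alone, Benjamini-Hochberg adjustment over 12506 genes). A gene was called when its FDR was below 0.05 and its log2 fold change exceeded 0.585 in either direction, the study's thresholds. EBSeq, which the study used, was not installed. SEs were derived from the fold change and the F statistic. In all, 11 alternatives with all 6 libraries and 6 fits that each left out 1 library were run, with DESeq2 1.42.0 and limma 3.58.1 among the tools, and the fits were tested on simulated data. The members, gene lists and tests were chosen with earlier results of these data known. Named genes are the members, the ferritin heavy chain and myoglobin rows, the called genes and the 3 largest others of each pathway list, the marker genes, and the 5 genes closest to HMOX1. The values of 1 gene of these lists are not reported here. NFE2L2, KEAP1, HAMP, LOC101119163 and LOC101108797 fall outside this rule and were named after their values were seen. Names of LOC rows came from the file, and that of LOC780509 also from RefSeq (ARS-UI_Ramb_v3.0). In the RPKM table, 25 gene names had become dates and were left out. Each library is 1 animal, and a single gene cannot reach an exact permutation p below 0.1 with 3 animals against 3. Depth and counting error limit the low genes, where 3 counts per library was taken as the floor.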

Additional observations from a re-analysis of the deposited data

How the results depend on the processing

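The number of the 9 genes called, 4, fell to 1 at an FDR of 0.01 and with limma-trend on log2(RPKM + 1) without a filter, to 2 with TREAT, and to 0 without QHMM replicate 2 and STH replicate 3, an alternative chosen after the data were seen. DESeq2 called 5, adding FTH1, and limma-trend on log2(RPKM + 1) or log2(RPKM + 0.1) called 4, with FTH1 in place of ALAS1. With 1 library left out it was 1 to 4, with 1 (HMOX1) without QHMM replicate 1 and 2 without QHMM replicate 2 or 3. The number of pathway genes called, 7, was 11 with DESeq2, 2 with TREAT and with unfiltered limma-trend, 1 at an FDR of 0.01, 0 without QHMM replicate 2 and STH replicate 3, and 1 to 6 with 1 library left out, with 1 without QHMM replicate 1, 2 without QHMM replicate 3, and 3 without QHMM replicate 2 or STH replicate 2. The log2 fold change of HMOX1 lay between 2.88 and 3.59 with 1 library left out and between 3.12 and 3.33 in the other settings, and its only lost call was at 3.12, without QHMM replicate 2 and STH replicate 3, where fewer samples were fitted. Signs changed only for genes that were not called: BLVRA (0.033) and FLVCR1 (0.42) without those libraries, FLVCR1 without STH replicate 3 (0.11), FBXL5 without QHMM replicate 1 (-0.074) or STH replicate 2 (-0.031), IREB2 without QHMM replicate 2 (-0.13) or STH replicate 2 (-0.28), and SLC40A1 without STH replicate 2 (-0.33), and the cause was not tested. Over the fits that left out libraries, BLVRA ranged from -0.67 to 0.033, SLC40A1 from -0.33 to 0.26, FLVCR1 from -1.09 to 0.42, FBXL5 from -0.074 to 0.37 and IREB2 from -0.28 to 0.23. The replicate block called 457 genes in all against 432, and 4 of the 9 genes, and in it GLRX5 lost its call (FDR = 0.0536) and LOC780509 gained one (FDR = 0.0449). The numbers were not taken to pair animals because the titles do not state it. Deviations from the breed means correlated at 0.23, -0.04 and -0.13 for same-numbered libraries and at -0.26 to 0.29 for the others. With 3 libraries centred in each breed, these values cannot decide whether animals were paired. Over all genes, DESeq2 called 975, TREAT 105, the FDR of 0.01 called 41, the fit without a filter 806, unfiltered limma-trend 78, and the fit without QHMM replicate 2 and STH replicate 3 called 11. The called genes were 47.0% up-regulated in edgeR and 61.3% with limma-trend on log2(RPKM + 1). The MB alternative had no row of that name to be set against.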

Other observations

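HMOX1 and the myoglobin gene MB are near neighbours in RefSeq's newer sheep assembly (ARS-UI_Ramb_v3.0), with 3 genes between them, of which MCM5 and RASD2 are protein-coding. HMOX1 rose in STH, while the myoglobin row LOC780509 had a log2 fold change of -1.47. MCM5, a DNA replication gene, had a log2 fold change of -0.04 (SE 0.28, edgeR FDR = 0.958) and 8.18 to 15.5 CPM. RASD2 was not analysed here. MCM5 was chosen after the values of HMOX1 and LOC780509 were seen.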
